A study of Mus musculus with 8 samples.

Results

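The mitochondrial ribosomal protein genes were taken as the protein-coding rows whose symbol begins with Mrpl or Mrps and a number. The table held 78 of them among 52636 gene rows, 22027 of which were protein coding. By name, 49 belonged to the large subunit (Mrpl) and 29 to the small subunit (Mrps). Satellite cells (SCs), the resident stem cells of muscle fibres, were compared between 4 control libraries and 4 exercise libraries from male C57B/6J mice that entered the study at 10 weeks of age. The control mice stayed sedentary. Exercise mice ran on a treadmill for 4 weeks, on 4 days of each week, for 30 min a day at 12 m/min. Each library came from a sort of roughly 800 cells negative for CD45, Sca1, CD11b and CD31 and positive for CD34 and α7-integrin, and a kit meant for single cells was used to amplify its RNA. The study counts mice as the replicates of these data, but the labels tie no library to a mouse, and p-values measure the spread between these libraries. The comparison asks how treadmill training changed the mRNAs of the mitochondrial ribosome in SCs.

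Mitochondria carry their own ribosome, the mitoribosome, which translates the few mRNAs of the mitochondrial genome into core subunits of the respiratory chain. Its RNAs are encoded by the mitochondrial genome, but every one of its proteins is encoded in the nucleus, made in the cytosol and imported. Some of these proteins descend from bacterial ribosomal proteins and others joined the mitoribosome later, without a bacterial counterpart. Tissues that burn much oxygen, such as working muscle, need this translation to renew their respiratory chain.

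Values are FPKM, reads per gene divided by gene length and by a library size, and the reads behind each value could be recovered. The libraries held 2339966 to 3013354 reads on genes in control and 1011737 to 1200221 in exercise, and 1 read on a gene of 1000 bases was worth 0.251 to 0.436 FPKM in control and 0.598 to 3.47 FPKM in exercise. Reads of the mitochondrial genome made up 2.09% to 15.3% of control libraries and 7.56% to 68.7% of exercise libraries, with 50.2% in exercise 3 and 68.7% in exercise 4. Of 12 satellite cell markers 8 had a read. Pax7, the transcription factor that defines SCs, Itga7, the gene of the α7-integrin used in the sort, Cdh15 and Calcr had none in any library. Cd34, also used in the sort, had reads in all 8 libraries, at 0.1196 to 1.48 FPKM in control and 1.90 to 9.63 FPKM in exercise, and so had Sdc4, at 3.25 to 76.1 FPKM. Vcam1, Myod1, Myf5 and Cxcr4 had reads in control only, at most 39, 7, 3 and 2 in a library, and were too low to be tested. Heyl was higher in exercise (log2 fold change 3.53, limma adjusted p = 0.0212) and Chodl lower (-2.90, adjusted p = 0.00881). Of 12 myofibre markers 11 had a read, with a summed level of 40051 to 90654 FPKM in control and 19893 to 107924 FPKM in exercise. Of 9 immune markers 0 had a read. A read fell on 3 of 8 endothelial, 8 of 8 fibro-adipogenic and 4 of 6 erythroid markers. Summed endothelial markers lay between 0.0925 and 2994 FPKM in control and between 4.42 and 26.2 FPKM in exercise, fibro-adipogenic markers between 1419 and 2225 FPKM and between 1504 and 2265 FPKM, and erythroid markers between 0 and 119 FPKM and between 0 and 1.56 FPKM. Nearly all of the endothelial sum in control 2 to 4 was Kdr, which had no read in control 1. In these lists the myofibre genes Mb (log2 fold change -7.09, limma adjusted p = 0.0231) and Myh1 (-2.75, 0.0174) and the endothelial gene Kdr (-7.82, 0.0281) were lower in exercise, and the endothelial gene Tek (3.92, 0.00395) and the fibro-adipogenic gene Lum (2.02, 0.0229) were higher. The part of these cells in the results on mitoribosome genes was not tested. In sorted cells sequenced in bulk, fewer cells of a type and less RNA per cell cannot be told apart.

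Some libraries of a group resembled each other closely over these genes. Exercise 1 and exercise 2 correlated at r = 0.99 over the 50 genes that were tested (log2(FPKM + 1), genes of the same libraries, no p). Their reads on mitoribosome genes differed by a chi-square of 4.44 per gene, above counting noise, where other pairs within a group differed by 61.8 to 489. The value of control 4 lay between those of control 1 and control 3 in 47 of the 50 genes, and the value of exercise 3 lay between those of exercise 1 and exercise 4 in 48. A further look took genes with 10 or more reads in 1 library whose share of reads in a second library was under 0.05 times that in the first. For 12 mitoribosome genes of control 1 that were this low in control 3, 4 of them without a read there, the share in control 4 was a median of 0.276 times that in control 1 (0.280 over 1187 genes of all kinds). For 16 genes of control 3 that were this low in control 1, 8 of them without a read, it was 0.709 times that in control 3 (0.703 over 1704 genes). The share in exercise 3 was 0.261 times that in exercise 1 for 8 genes low in exercise 4, 2 of them without a read (0.303 over 1129 genes). It was 0.865 times that in exercise 4 for 6 genes without a read in exercise 1 (0.668 over 401 genes low there). Control 1 and control 3 did not correlate with each other over the 50 genes (r = 0.00). All 8 libraries entered the tests below, and counts with some of them averaged or left out are given beside the results.

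Reads of mitoribosome genes covered more genes in control than in exercise libraries. At least 1 read fell on 49, 45, 58 and 62 of the 78 genes in control 1 to 4, and on 20, 19, 27 and 21 in exercise 1 to 4. Each control library covered more of them than each exercise library, and so it was for all protein-coding genes, of which 4506 to 6429 of 21993 symbols had a read in control and 2017 to 2883 in exercise. With all libraries thinned to 362038 reads outside the mitochondrial genome, the depth of exercise 4, the numbers were 42, 38, 46 and 52 in control and 19, 15, 26 and 21 in exercise, still without overlap. Thinned likewise, 3545 to 4996 protein-coding genes had a read in control and 2017 to 2684 in exercise, also without overlap. Over all libraries 34 genes had reads in control only, 3 in exercise only and 32 in both, and 9 had none. After thinning 30 were in control only, 5 in exercise only and 29 in both. These were 46.9%, 7.81% and 45.3% of those with a read, beside 50.4%, 9.71% and 39.9% of all protein-coding genes with a read. Without thinning, the genes seen in control only were 49.3% of the mitoribosome genes with a read, beside 52.5% of all protein-coding genes with a read. Reads were present in all 8 libraries for 8 genes (11.6%, beside 11.1%), and 14 genes had a read in each control library and none in exercise (20.3%, beside 10.6%).

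**Figure D1:**
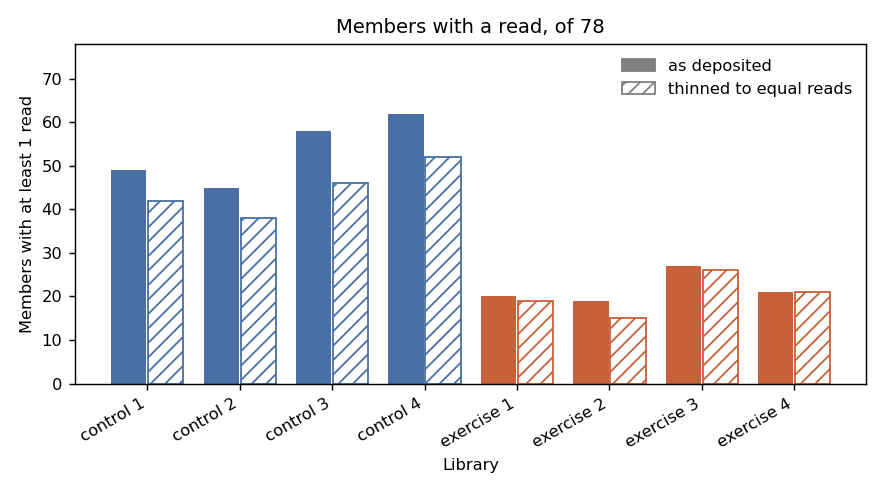
Number of the 78 mitochondrial ribosomal protein genes with at least 1 read in each library, as deposited (filled) and after thinning every library to 362038 reads outside the mitochondrial genome (hatched). The 4 control libraries lie between 45 and 62 and the 4 exercise libraries between 19 and 27, and the gap stays after thinning. All protein-coding genes also keep a gap after thinning.

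The share of reads on mitoribosome genes did not follow the number of genes. Of reads outside the mitochondrial genome they took 0.466%, 0.524%, 1.04% and 0.841% in control 1 to 4 and 1.15%, 1.14%, 0.789% and 0.441% in exercise 1 to 4. The groups overlapped, with the highest shares in exercise 1 and 2 and the lowest in exercise 4. A few genes held most of these reads in exercise. The 3 leading genes took 90.8% and 92.3% of them in exercise 1 and 2, 81.3% in exercise 3 and 77.8% in exercise 4, against 35.6% to 71.0% in control. Mrpl23 led in exercise 1, 2 and 3 and Mrpl48 in exercise 4, where it alone took 62.7%. Control libraries were led by Mrpl57 (control 1), Mrpl17 (control 2, with 46.2%) and Mrpl36 (control 3 and 4).

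The test was limma on log2(FPKM + 1), run on genes that averaged 1 FPKM or more across all libraries, which were 4328 in all and 50 of the 78 mitoribosome genes. Of the 28 others, 9 had no read and 19 were below the filter. With an adjusted p under 0.05, 18 mitoribosome genes were lower in exercise (36% of the 50) and 4 were higher (8%). Of all genes tested, 26.8% were lower and 8.78% higher by the same rule. At an unadjusted p under 0.05, 23 of the 50 were lower and 5 higher, against 37.7% and 11.9% of all genes tested. By voom, a fit in limma on the recovered reads, 15 were lower and 4 higher at an adjusted p under 0.05, against 18.3% and 10.4% of all genes tested. Exercise and control ranges were separate in 16 mitoribosome genes that were lower and in 2 that were higher. Over all genes tested, 24% were separate and lower and 7.62% separate and higher. With every value under 3 reads set to the value of 3 reads, 6 remained separate and lower (Mrpl2, Mrpl9, Mrpl14, Mrpl17, Mrpl21 and Mrpl27), against 10.9% of all genes. The filter bears on these counts: 30 of the 50 genes passed it through control alone, 4 through exercise alone and 16 through both, and in 29 a single library held more of the summed FPKM than the other 7 together, 10 of them among the 22 called.

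The median log2 fold change of the 50 genes was -2.06, beside -1.42 over all genes tested, and 38 of the 50 and 2954 of all 4328 had a negative one. As ratios of group means, with values under 3 reads set to 3 reads, the medians were -1.76 and -1.04. Over all 78 genes, tested or not, the mean log2(FPKM + 1) was 2.15 ± 0.33 in control and 1.01 ± 0.18 in exercise (SD, n = 4 each), and each control library was above each exercise library. The mean over all protein-coding genes was separate in the same direction, at 0.56 ± 0.04 in control and 0.34 ± 0.02 in exercise. Quantile normalization moved the medians to -1.02 and -0.44, and 10 genes were then lower and 6 higher, against 375 lower and 566 higher of all genes tested. The counts also depended on which libraries entered the fit. With exercise 1 and 2 averaged as 1 sample, 10 were lower and 2 higher, and 418 and 178 of all 4397 genes tested. With control 4 and exercise 3 left out as well, limma called 0 of the 50 and 0 of all 4499 genes, with 12 of the 50 and 469 of all genes at an unadjusted p under 0.05 and a median of -1.83 over the 50. In the same libraries voom, here added after seeing the data, also called 0 of the 50 and 0 of all genes, with 9 and 549 at an unadjusted p under 0.05.

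**Figure D2:**
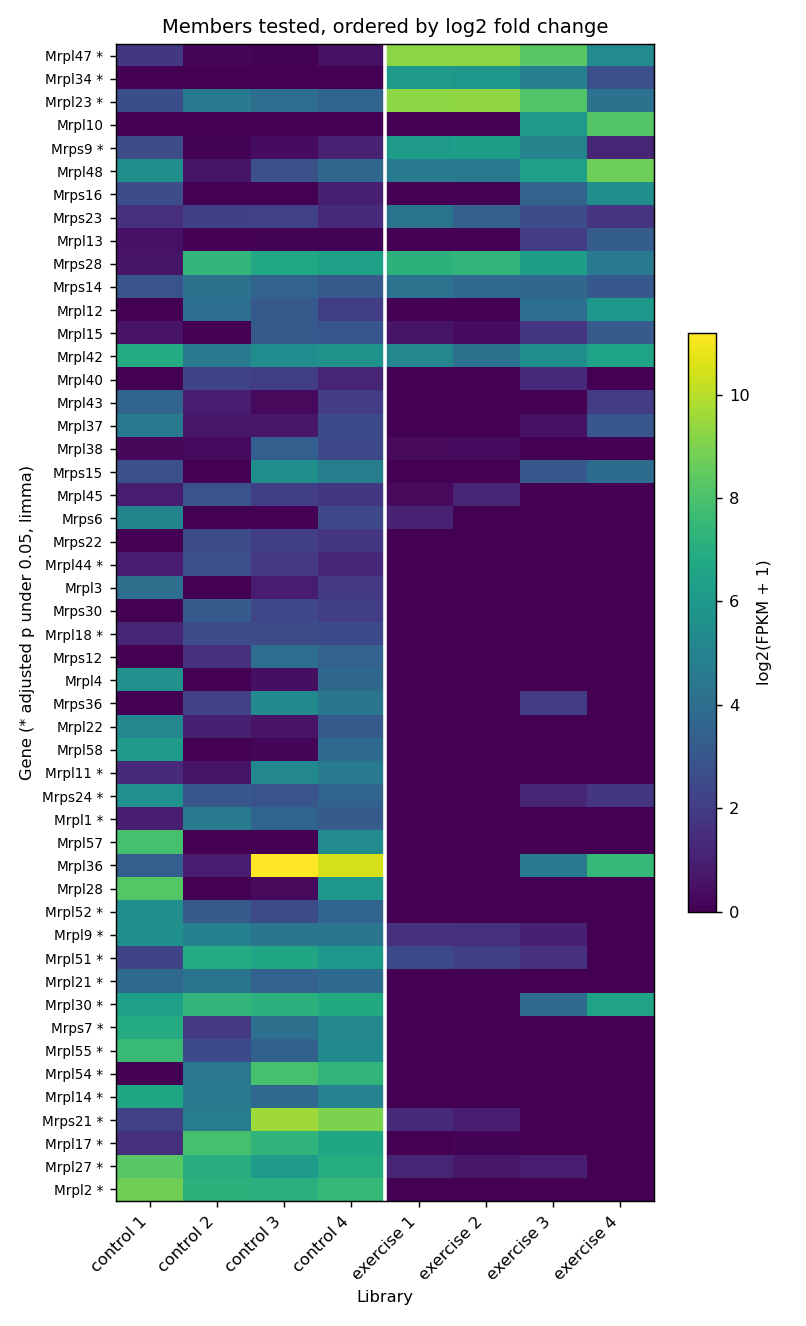
log2(FPKM + 1) of the 50 tested mitochondrial ribosomal protein genes (rows, ordered by log2 fold change) in the 8 libraries (columns), with genes at an adjusted p under 0.05 (limma) marked by a star. In 20 rows no exercise library has a read, exercise 1 and 2 look nearly alike, and control 4 and exercise 3 lie between 2 other libraries of their group in 47 and 48 of the 50 rows.

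Large subunit genes were lower in 15 (41.7%) and higher in 3 (8.33%) of 36 tested, with a median of -2.49. Small subunit genes were lower in 3 (21.4%) and higher in 1 (7.14%) of 14, with a median of -1.61. Of all genes tested 26.8% were lower and 8.78% higher, with a median of -1.42. The difference between the subunits was not tested. Structures of the mitoribosome place the proteins of Mrps18a and Mrps30 in the large subunit, and both were counted there in the groups that follow. Large subunit proteins conserved in bacteria had 22 tested genes of 29, with 10 lower, 3 higher and a median of -2.73. Those without a bacterial counterpart had 15 tested of 22, with 5 lower and a median of -1.67. In that class limma called 0 higher, with 1 at an unadjusted p under 0.05, and voom called 2 lower and 0 higher. Conserved small subunit proteins had 10 tested of 16, with 3 lower, 1 higher and a median of -1.56. Small subunit proteins without a bacterial counterpart were measured least, with a read in 5 of 10 genes and 2 tested. By limma 0 of the 2 were called, with 1 lower at an unadjusted p under 0.05, and by voom 0. Mrps36 was left out of these classes, and so were small subunit proteins without a bacterial counterpart whose genes have other names, such as Chchd1, which are given with the lists of further genes.

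**Figure D3:**
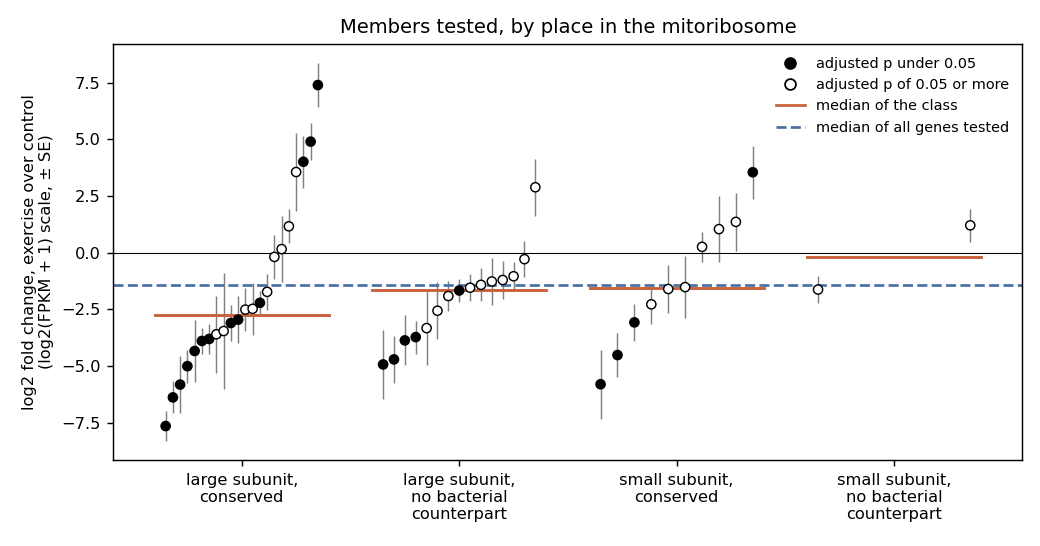
log2 fold change (exercise over control, on the log2(FPKM + 1) scale) with its SE for each tested mitochondrial ribosomal protein gene, by subunit and conservation in bacteria; filled points have an adjusted p under 0.05. The medians of the classes (solid lines) run from -2.73 for conserved large subunit proteins to -0.21 for the 2 small subunit proteins without a bacterial counterpart, beside -1.42 for all genes tested (dashed line).

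Mrpl2 encodes the counterpart of bacterial L2, which helps to shape the peptidyl transferase centre, where peptide bonds are made. The gene (ENSMUSG00000002767, mm10 chr17:46646229-46650139, + strand) stood at 436, 146, 136 and 182 FPKM in control 1 to 4, from 524 to 1171 reads, and had no read in any exercise library. All 4 controls were high, with control 1 the highest. Taking 3 reads in each exercise library as the limit that a count of 0 allows, exercise was at least 62.8-fold lower, and its log2 fold change was -7.65 ± 0.66 (SE, limma adjusted p = 0.000409). Mrpl27, whose bacterial relative reaches into the same centre (ENSMUSG00000024414, chr11:94653767-94660089, + strand), had 307, 125, 71.0 and 120 FPKM in control and 1.21, 0.636, 0.916 and 0 FPKM in exercise, the last 4 values from 2, 1, 1 and 0 reads. The groups were far apart, and the log2 fold change was -6.38 ± 0.71 (adjusted p = 0.000600).

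Mrpl17 (ENSMUSG00000030879, chr7:105803206-105811099, - strand), a conserved protein of the large subunit, had 1.95, 246, 152 and 97.5 FPKM in control, and 1 read in exercise, in exercise 2. Control 1 was much lower than the other controls but still above exercise, and the log2 fold change was -5.82 ± 1.27 (adjusted p = 0.0105). Mrpl14, a conserved protein at the face that meets the small subunit (ENSMUSG00000023939, chr17:45686322-45698495, + strand), had 94.6, 24.4, 13.0 and 30.4 FPKM in control and no read in exercise. Its controls were spread, with control 1 the highest, and it was at least 9.18-fold lower in exercise, or 5.11-fold without control 1 (log2 fold change -5.01 ± 0.72, adjusted p = 0.00166). Mrpl21 (ENSMUSG00000024829, chr19:3282901-3292837, + strand), also a conserved large subunit protein, was the most even of these genes among controls, with 13.4, 18.7, 10.3 and 14.2 FPKM, and had no read in exercise. It was at least 6.79-fold lower (log2 fold change -3.89 ± 0.56, adjusted p = 0.00161). Each of these 3 genes, and Mrpl2 and Mrpl27, kept an adjusted p under 0.05 when any 1 library was left out. All of them lost it with exercise 1 and 2 averaged and control 4 and exercise 3 left out, where limma called no gene of any kind.

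Mrpl55, a large subunit protein without a bacterial counterpart (ENSMUSG00000036860, chr11:59202486-59206134, + strand), had 185, 4.77, 9.98 and 38.6 FPKM in control and no read in exercise. Control 1 set most of its mean, so that the bound of at least 14.6-fold lower became 4.35-fold without it (log2 fold change -4.71 ± 1.03, adjusted p = 0.0105). The small subunit gene Mrps7, for a protein of the head of the subunit (ENSMUSG00000046756, chr11:115603925-115608036, + strand), had 117, 2.68, 16.6 and 34.9 FPKM in control and no read in exercise. It was at least 21.1-fold lower, or 8.91-fold without control 1 (log2 fold change -4.52 ± 0.99, adjusted p = 0.0105). Mrpl55 and Mrps7 also kept the call when any 1 library was left out. They too lost it with exercise 1 and 2 averaged and control 4 and exercise 3 left out. Mrps21 (ENSMUSG00000054312, chr3:95862634-95871519, - strand), for a small conserved protein of the small subunit, was concentrated in control 3 and 4, with 3.54, 25.2, 782 and 504 FPKM in control and 1.62, 0.848, 0 and 0 FPKM in exercise. Control 1 was close to exercise 1, at 6 against 2 reads. Its log2 fold change of -5.80 ± 1.53 (adjusted p = 0.0217) lost the call without control 3, control 4, exercise 2 or exercise 3, with an adjusted p of up to 0.0684. Quantile normalization also took the call away (limma adjusted p = 0.0572).

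The 10 other genes lower in exercise at this threshold were Mrpl54, Mrpl30, Mrpl51, Mrpl9, Mrpl52, Mrpl1, Mrps24, Mrpl18, Mrpl44 and Mrpl11, with log2 fold changes from -4.93 to -1.67. Mrpl30 was lower in exercise 1 and 2, where it had no read, but reached 87.1 FPKM in exercise 4, within the control range of 79.9 to 166 FPKM. The groups also overlapped for Mrpl54, without a read in control 1 or in exercise, and for Mrpl51, with 3.88 FPKM in control 1 and 4.73 FPKM in exercise 1. Mrpl18 had 1.25 to 5.13 FPKM and Mrpl44 had 0.796 to 5.56 FPKM in control, and neither had a read in exercise. These levels are near those of 3 reads in an exercise library, so the data bound the fall of Mrpl18 only at 1.33-fold and that of Mrpl44 at 1.02-fold, which its highest control alone sets. Mrpl9 was the only one of the 10 whose groups stayed apart with values under 3 reads set to 3 reads.

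**Figure D4:**
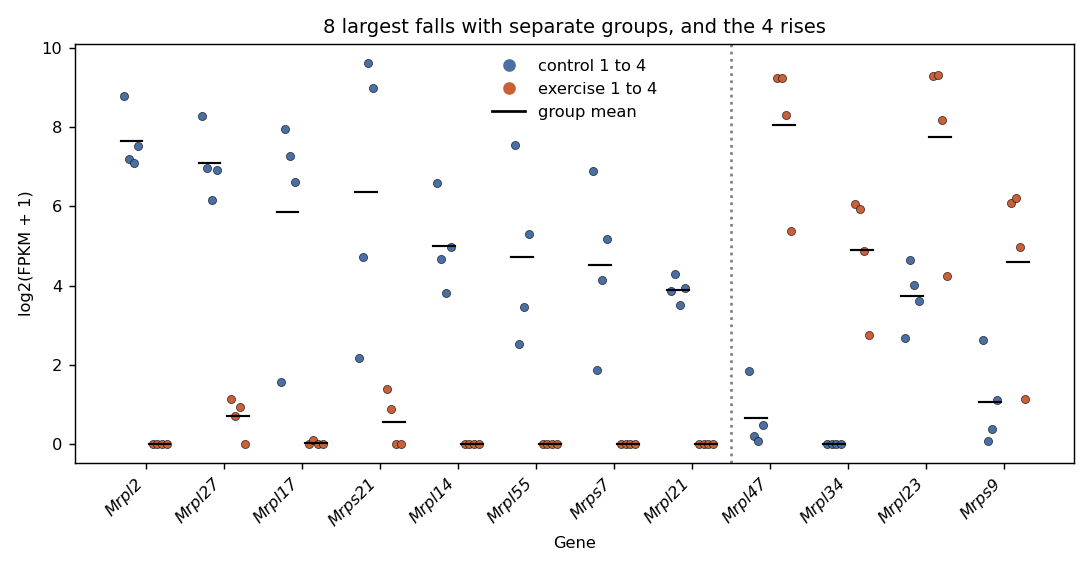
log2(FPKM + 1) in each library for the 8 mitochondrial ribosomal protein genes with the largest falls and separate groups (left of the dotted line) and the 4 genes higher in exercise (right); horizontal bars are group means. In 5 of the 8 falling genes every exercise library is at 0, while in the rising genes exercise 1 and 2 are highest, exercise 3 is lower and exercise 4 is lowest.

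Of the genes higher in exercise, 2 had separate groups. Mrpl47 (ENSMUSG00000037531, chr3:32725397-32737605, - strand) encodes a conserved protein at the exit of the peptide tunnel. It had 2.56, 0.148, 0.058 and 0.398 FPKM in control and 605, 600, 317 and 40.8 FPKM in exercise. The lowest exercise value, in exercise 4, was above the highest control value, and the log2 fold change was 7.39 ± 0.98 (adjusted p = 0.00112). Its exons share 24.2% of their bases with exons of other annotated genes on the opposite strand, and the strand setting of the counting is not given in the sources used here. One of these is Ndufb5, a subunit of complex I, which had 41.4, 60.6, 81.2 and 61.3 FPKM in control and 50.9, 49.3, 59.0 and 109 FPKM in exercise, and these levels overlapped between the groups. Mrpl34 (ENSMUSG00000034880, chr8:71464959-71465747, + strand), for a small conserved protein of the large subunit, had no read in any control library and 65.0, 59.9, 28.2 and 5.72 FPKM in exercise, from 66, 58, 19 and 1 reads. Taking 3 reads in each control library as the limit, it was at least 25.3-fold higher in exercise (log2 fold change 4.90 ± 0.82, adjusted p = 0.00330). Both genes kept an adjusted p under 0.05 when any 1 library was left out, but not with exercise 1 and 2 averaged and control 4 and exercise 3 left out.

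Mrpl23, for a conserved protein at the exit of the peptide tunnel (ENSMUSG00000037772, chr7:142532686-142540747, + strand), had 5.45, 24.1, 15.1 and 11.2 FPKM in control and 618, 635, 287 and 17.8 FPKM in exercise. Exercise 1 to 3 were high, but exercise 4 lay within the control range. The log2 fold change was 4.01 ± 1.15 (adjusted p = 0.0296), and the call held in 2 of the 8 fits without 1 library, those without control 2 and without exercise 4, with an adjusted p of up to 0.0825. Mrps9, whose bacterial relative touches the tRNA in the peptidyl site (ENSMUSG00000060679, chr1:42851233-42905683, + strand), had 5.22, 0.0567, 0.311 and 1.18 FPKM in control and 66.8, 73.0, 30.7 and 1.204 FPKM in exercise. Exercise 4 again lay within the controls. Its log2 fold change of 3.55 ± 1.18 (adjusted p = 0.0425) also held in 2 of these 8 fits, without control 1 and without exercise 4, and the adjusted p reached 0.105 in the others. The rise of these 4 genes had the order exercise 1 and 2, then exercise 3, then exercise 4, while the share of mitochondrial genome reads had the reverse order, and its part in the result was not tested.

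The promoters of the genes with the largest falls and rises are shown for a look at the sequence upstream of genes that moved in opposite directions. Each line gives the 250 bases before the start of the gene in RefSeq (GRCm38.p6), 5′ to 3′, and for Mrpl2 the start lying farthest upstream of 3 was used. The RefSeq start of Mrpl47 lies 850 bases downstream of the start in the deposited table, so its stretch is inside the interval given above, while the other starts lie within 33 bases of those in the table. They lie at chr17:46645971-46646220 (+ strand), chr11:94653541-94653790 (+ strand), chr3:32736756-32737005 (- strand) and chr8:71464676-71464925 (+ strand). Capitals mark CCGGAAG, 1 form of the site bound by ETS factors such as GABP, a known regulator of nuclear genes for mitochondrial proteins.
Mrpl2: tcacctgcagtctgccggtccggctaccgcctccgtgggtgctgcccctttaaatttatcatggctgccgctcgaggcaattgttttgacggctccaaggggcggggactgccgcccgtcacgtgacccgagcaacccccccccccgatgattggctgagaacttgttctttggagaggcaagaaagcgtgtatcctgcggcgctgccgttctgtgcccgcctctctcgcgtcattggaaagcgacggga
Mrpl27: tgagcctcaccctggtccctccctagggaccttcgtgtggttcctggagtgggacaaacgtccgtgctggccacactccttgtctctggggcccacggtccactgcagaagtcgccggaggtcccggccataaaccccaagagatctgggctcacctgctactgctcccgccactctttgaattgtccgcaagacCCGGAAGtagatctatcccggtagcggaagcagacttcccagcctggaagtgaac
Mrpl47: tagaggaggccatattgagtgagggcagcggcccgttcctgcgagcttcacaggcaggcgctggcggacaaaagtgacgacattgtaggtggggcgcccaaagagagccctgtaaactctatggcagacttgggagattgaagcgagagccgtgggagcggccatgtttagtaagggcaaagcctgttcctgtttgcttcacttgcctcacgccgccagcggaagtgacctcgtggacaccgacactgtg
Mrpl34: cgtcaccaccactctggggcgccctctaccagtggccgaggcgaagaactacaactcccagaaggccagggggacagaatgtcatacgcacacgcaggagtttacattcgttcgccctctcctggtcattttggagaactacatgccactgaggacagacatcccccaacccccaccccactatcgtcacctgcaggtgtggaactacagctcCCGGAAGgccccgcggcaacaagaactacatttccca
The exact letters CCGGAAG stood before 1 gene of each pair, Mrpl27 among the falls and Mrpl34 among the rises, and before neither Mrpl2 nor Mrpl47. Other forms of the ETS site were not searched, so their absence from any of these stretches is not shown.

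Promoters of 69 of the 78 mitoribosome genes were in the RefSeq table, as 250 bases before to 50 bases after the start. Each motif was searched on both strands, and motifs were allowed to overlap. Shares are of genes with the motif in any of their promoters, beside the same over 16341 protein-coding genes and the share of all 32851 promoters. CCGGAAG was present for 26 genes (37.7%, beside 13.3% of genes and 8.86% of promoters). CGCANGCG, the core bound by NRF1, was present for 20 (29.0%, beside 13.0% and 8.21%), AAGATGG, bound by YY1, for 13 (18.8%, beside 7.28% and 6.34%), and CAAGGTCA, bound by oestrogen-related receptors, for 2 (2.90%, beside 1.49% and 1.56%). At least 1 of the 4 motifs was found for 45 of the 69 genes (65.2%, beside 29.8% and 22.1%), for 13 of 17 genes lower in exercise and for 2 of 4 higher. These are matches of letters and not measured binding. Genes of the mitoribosome often lay head to head with another gene: 33 of the 78 (42.3%) had the start of a protein-coding gene on the opposite strand within 1000 bases, against 10.9% of the 21951 protein-coding genes of the GENCODE annotation of GRCm38.

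Of the 6 genes with the highest mean level, 4 passed the test (Mrpl2, Mrpl23, Mrpl47 and Mrps21, described above) and 2 did not. Mrpl36, for a very small protein of the large subunit, had the highest mean of all, from 9.01, 0.844, 2330 and 1426 FPKM in control and 0, 0, 23.3 and 173 FPKM in exercise. Only control 3 and 4 were high, control 2 stood on 3 reads, and the groups overlapped (log2 fold change -3.46 ± 2.54, adjusted p = 0.273). Mrps28 (small subunit) had 0.557, 170, 105 and 81.4 FPKM in control and 144, 165, 73.7 and 22.2 FPKM in exercise, with control 1 far below the rest. Its log2 fold change was 1.04 ± 1.44 (adjusted p = 0.559) and turned to -0.51 without control 1.

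Mrpl10, Mrpl11 and Mrpl12 form the flexible stalk and its base, where the translation factors bind. Mrpl10 had no read in control, exercise 1 or exercise 2 and stood at 63.9 and 295 FPKM in exercise 3 and 4 (log2 fold change 3.56 ± 1.73, adjusted p = 0.125). Mrpl11 had 1.51, 0.567, 36.6 and 23.3 FPKM in control and no read in exercise (log2 fold change -2.95 ± 1.03, adjusted p = 0.049), and lost the call without any 1 of 6 libraries, with an adjusted p of up to 0.131. Mrpl12 had 0, 16.0, 8.03 and 3.28 FPKM in control and 0, 0, 15.3 and 61.2 FPKM in exercise, which overlapped (log2 fold change 0.16 ± 1.47, adjusted p = 0.932), and its sign depended on the setting. Mrpl10 and Mrpl12 had reads in some libraries of a group and not in others, while Mrpl11 had reads in all 4 controls.

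The paralogs Mrps18a, Mrps18b and Mrps18c, of which the first lies in the large subunit, were nearly unmeasured. No library had more than 3, 7 or 2 reads on them, none had a read in exercise, and all were below the filter. At these depths a difference was not detectable. Mrpl58, a peptidyl-tRNA hydrolase that releases stalled peptides and is also built into the large subunit, had 69.0, 0, 0.154 and 14.01 FPKM in control and no read in exercise. Control 1 and 4 carried it, control 2 had none, and the difference did not pass (log2 fold change -2.56 ± 1.26, adjusted p = 0.127).

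Of the 8 genes with reads in every library 5 did not pass the test, Mrps28 among them. Mrpl48, highest in exercise 3 and 4, had 46.0, 0.561, 5.75 and 12.8 FPKM in control and 24.2, 22.1, 80.5 and 426 FPKM in exercise (log2 fold change 2.88 ± 1.26, adjusted p = 0.093). Mrpl42 stood at 22.9 to 118 FPKM in control and 17.4 to 89.5 FPKM in exercise (log2 fold change -0.29 ± 0.78, adjusted p = 0.776). Mrps14, at 6.56 to 17.1 FPKM in control and 7.46 to 17.99 FPKM in exercise, also overlapped between the groups (log2 fold change 0.26 ± 0.65, adjusted p = 0.758). Mrps23 had 1.61 to 3.45 FPKM in control and 2.22 to 18.8 FPKM in exercise, with only exercise 4 inside the control range (log2 fold change 1.205 ± 0.73, adjusted p = 0.187). These 4 genes were chosen after the values were seen.

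No read fell on Mrpl19, Mrpl24, Mrpl41, Mrpl53, Mrps25, Mrps27, Mrps31, Mrps34 and Mrps35 in any library. Of these 9, 6 share exon bases with another annotated gene, with a median of 26.3% of exon bases over the 9. Of the 69 genes with reads 27 share exon bases, with a median of 0%. Where 2 genes overlap, reads can be left uncounted or split, and the part of this in the 9 zeros was not tested. All 78 identifiers were in the GENCODE annotation, 72 with the same coordinates. The tested mitoribosome genes were short, with a median length of 2041.5 bases against 3195.5 over all genes tested. Longer ones had log2 fold changes nearer to or above 0 (Spearman rho = 0.32 across 50 genes of the same libraries, no p), against a rho of 0.04 across all genes tested.

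Further genes of mitochondrial translation were followed in lists. Mitoribosome proteins with other names were lower in exercise in 4 of 4 tested, of 5 listed, and the groups were separate in all 4, or in 3 with values under 3 reads set to 3 reads. Of all genes tested 26.8% were lower, 24% were separate and lower, and 10.9% remained so with values under 3 reads set to 3 reads. Chchd1, a small subunit protein, had 3809, 85.9, 333 and 1029 FPKM in control and 0, 0.689, 0.992 and 19.1 FPKM in exercise (log2 fold change -7.66 ± 1.31, adjusted p = 0.00366). Aurkaip1 had 10.4 to 795 FPKM in control and 1.97 to 8.47 FPKM in exercise, and Ptcd3 had 1.53 to 67.2 FPKM and no read. The fourth was Dap3, a GTP-binding small subunit protein, with 0.0672 FPKM in control 1, from 1 read, 4.76 to 11.6 FPKM in the other controls and no read in exercise (log2 fold change -2.26 ± 0.75, adjusted p = 0.0420), and Gadd45gip1 had no read in any library. Without control 4, without exercise 3 or after quantile normalization 2 of the 4 were called, and 0 with exercise 1 and 2 averaged and control 4 and exercise 3 left out, where limma called no gene of any kind.

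Of 25 assembly factors 8 were tested, with Mrm2 and Ngrn lower (log2 fold changes -3.61 and -1.52) and Rpusd4 higher (2.77). Of 16 translation factors, Mrpl58 included, 5 were tested and 1 was lower, Tufm, the elongation factor that brings tRNA to the mitoribosome, with 0.205 to 13.4 FPKM in control and no read in exercise. Of 20 genes of aminoacyl-tRNA synthesis 4 were tested, with Hars2 lower (-2.19) and Cars2 higher (1.92). A list of 14 genes for the expression and upkeep of mitochondrial DNA, which also held the protease Lonp1, the chaperone Hspa9 and the tRNA-processing enzyme Elac2, had 3 tested and 1 lower (-2.79), Tfb2m, a transcription factor of the mitochondrial genome. Hspa9 had 1.17 to 6.43 FPKM in control and 7.01 to 57.4 FPKM in exercise, groups that were separate without passing the test (log2 fold change 2.06 ± 0.83, adjusted p = 0.0729). The assembly, translation factor and aminoacyl-tRNA lists lost every call when control 2, control 4, exercise 1, exercise 2 or exercise 3 was left out. The 13 mRNAs of the mitochondrial genome, the templates of the mitoribosome, held 0 calls in either direction, by limma at an adjusted or an unadjusted p under 0.05 and by voom, and they summed to 1538 to 10657 FPKM in control and exercise 1 and 2, 65738 FPKM in exercise 3 and 342344 FPKM in exercise 4. Cytosolic ribosomal protein genes were lower in 18 (20.9%) and higher in 6 (6.98%) of 86 tested, with a median of -0.72. Nuclear complex I subunits were lower in 18 (51.4%) and higher in 1 (2.86%) of 35, with a median of -2.60. Beside the counts of all lists in this paragraph, 26.8% of all genes tested were lower and 8.78% higher. The differences between these lists and the mitoribosome genes were not tested.

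**Figure D5:**
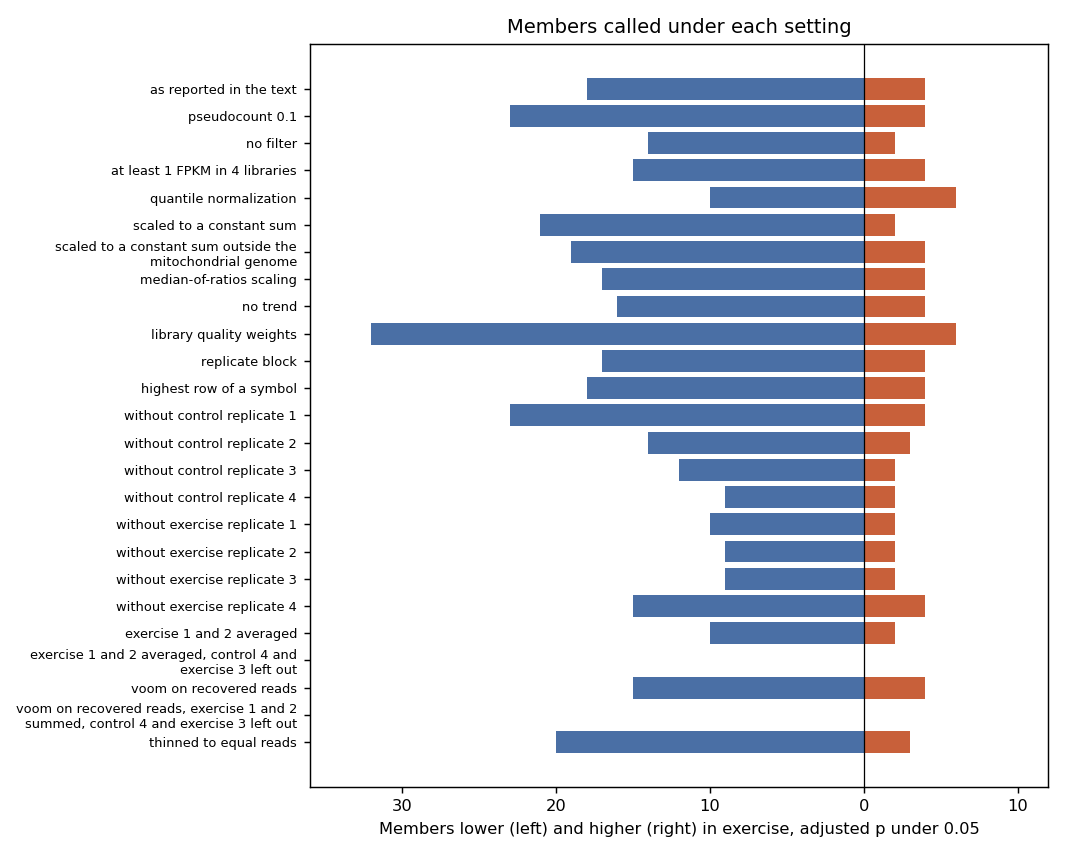
Number of mitochondrial ribosomal protein genes with an adjusted p under 0.05 that were lower (left) or higher (right) in exercise under each setting of the analysis. The count as reported is 18 lower and 4 higher, and both counts fall to 0 where exercise 1 and 2 are joined and control 4 and exercise 3 are left out.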

How the data were processed

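RNA-seq reads of 150 bases, in pairs, were aligned by the authors with Bowtie 0.12.9, FPKM were computed with Cufflinks 2.1.1 and reads were counted with HTSeq on mm10. The annotation release and the strand setting are not given in the sources used here. The authors deposited 1 table of FPKM and gene length. Value times length was a whole multiple of 1 step per library for 100% of values (tolerance 0.001), which gave reads. Median-of-ratios size factors of the FPKM lay between 0.853 and 1.13, so the values are already scaled between libraries. The study's own test was for counts. As the table holds FPKM, limma 3.58.1 in R 4.3.3 (lmFit, eBayes with a trend) was used on log2(FPKM + 1), after summing rows that share a symbol (101 fewer rows), with Benjamini-Hochberg adjustment over 4328 genes. The fit was tested on simulated data. Python 3.11.15, pandas 2.3.3 and numpy 2.4.6 handled the tables. A count of 0 was taken to allow 3 reads per library. That limit covers only the error of counting, as several reads can stem from 1 amplified molecule.

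The genes and gene lists were chosen with earlier results of these data known. Named were the 8 largest falls with an adjusted p under 0.05 and separate groups, up to 8 rises with an adjusted p under 0.05, the 6 highest means, the stalk genes, the Mrps18 paralogs, Mrpl58, and in other lists up to 3 genes with the lowest adjusted p. Alternatives changed the pseudocount (0.1), filter, scaling, trend, library weights, replicate block, summing of rows, depth, model and libraries.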

Additional observations from a re-analysis of the deposited data

Results flagged for a closer look

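In 3 of 36 groups of 4 libraries tested, for genes named in the text, the highest or lowest library lay far from the others (Dixon's test). For normally distributed values about 1 in 20 groups, or 1.8 here, would be flagged. A group with 1 value above 0 and all others at 0 is always flagged, as for Mrpl17 and Mrps18a, so the count cannot be set against that rate. Mrpl17 in exercise 2 was at 0.0824 FPKM, which is 1 read, while the other exercise libraries had none. Mrps18a in control 4 was at 0.204 FPKM, from 3 reads, with none in the other controls. Mrps28 in control 1 was at 0.557 FPKM, from 1 read, against 81.4 to 170 FPKM in the other controls, and leaving that library out turned the sign of its difference. The values for Mrpl17 and Mrps18a are at or under the 3 reads that a count of 0 allows.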

How the results depend on the processing

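Of the 18 lower and 4 higher mitoribosome genes, the counts stayed within 1.5 times under no trend (16 and 4), median-of-ratios scaling (17 and 4) and the highest row of a symbol (18 and 4). The replicate block gave 17 and 4, and turned Mrpl36 to a call (adjusted p = 0.0461). Deviations from the group mean correlated between -0.02 and 0.04 in same-numbered libraries, over the genes tested. Whether replicate numbers pair the libraries cannot be settled by these values. Where a value below changed, the cause was not tested.

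A pseudocount of 0.1 gave 6 lower Mrps genes, a median log2 fold change of -4.31 and a difference in mean level of -2.20. With no filter 2 were higher and the median was -1.21. Quantile normalization gave 10 lower (9 Mrpl, 1 Mrps) and a median of -1.02. Scaling to a constant sum gave 2 higher, 5 lower Mrps genes and a difference in mean level of -1.54, and the same scaling outside the mitochondrial genome gave 5 lower Mrps genes. Library quality weights gave 32 lower, 24 Mrpl and 8 Mrps, with 2163 of all 4328 genes lower. They also turned Mrpl36 to a call (log2 fold change -9.44 ± 1.54, limma adjusted p = 0.000392). Averaging exercise 1 and 2 gave 10 lower (8 Mrpl) and 2 higher. Leaving out control 4 and exercise 3 as well gave 0 lower, 0 higher, 0 Mrpl and 0 Mrps, and 0 of all 4499 genes, both by limma (12 at an unadjusted p under 0.05) and by voom on summed reads, added after seeing the data (9). Voom with all libraries gave a median of -3.002.

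Without 1 library, 9 to 23 genes were lower (8 to 16 Mrpl and 1 to 7 Mrps) and 2 to 4 higher, with medians from -2.60 to -1.86. The lowest count of lower genes, 9, came without control 4, exercise 2 or exercise 3 and the highest without control 1, and over all genes tested the counts of lower genes ran from 360 of 4425 without exercise 3 to 1503 of 3996 without control 1. Mrpl12, at 0.16 as reported, changed sign with a pseudocount of 0.1 (-0.56), scaling to a constant sum (-0.81) or to that sum outside the mitochondrial genome (-0.045), quality weights (-2.91), voom (-0.26), voom with summed reads (-0.9999) and thinning (-0.10), and ranged from -0.997 to 0.989 without 1 library. With quality weights Mrpl12 was also called lower (limma adjusted p = 0.0108). Mrps28 ranged from -0.51 to 1.75 without 1 library.

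Depth limits the genes with few reads: 20 of the 50 tested had no read in exercise, and in 4 of these the 3 reads allowed in exercise 4 exceed the control median.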
